A study of Homo sapiens with 6 samples.

Results

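The genes described here are 10 diagnostic, target and lineage markers of ovarian carcinoma, out of 61552 genes in the deposited table. They were chosen by name, with earlier results of these data known, and each symbol matched exactly 1 row. Counts of markers set beside shares of all genes are therefore descriptions. They comprise 6 surface proteins (CD24, MUC1, MUC16, EPCAM, MSLN and FOLR1), 1 secreted protein (WFDC2) and 3 transcription factors (PAX8, WT1 and SOX17). Poly(A) RNA came from SKOV3, a human ovarian carcinoma cell line in long use that carries extra copies of ERBB2, after 48 h with fenbendazole at 1 µM (libraries 7, 8 and 9) or with the vehicle DMSO (libraries 10, 11 and 12). Fenbendazole is a benzimidazole used against parasitic worms that binds tubulin. The labels name no engineered allele, and they do not say that the libraries of a group are from separate cultures. The p-values therefore reflect the variation among these 6 libraries, part or all of which may be technical.

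These proteins are used because ovarian carcinoma of Müllerian type keeps features of the epithelium that lines the oviduct and uterus. PAX8 and SOX17 are factors of that lineage, and WT1 is a factor used to mark serous tumours and mesothelium. MUC16 carries the CA125 antigen and WFDC2 is the serum marker HE4, while FOLR1, MSLN and EPCAM are surface antigens addressed by antibodies. CD24 is a small glycosylated surface protein that engages Siglec-10 on macrophages, and MUC1 is a transmembrane mucin of the apical membrane.

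With fenbendazole, CD24 and MUC1 fell and none of the 10 markers rose. In bulk RNA, fewer cells with a transcript and less of it per cell cannot be told apart. CD24 was at 0.429 times its DMSO level and MUC1 at 0.482 times. The CD24 call held under all 16 other settings, while the MUC1 call was lost in 5 of them. With offsets for GC content and transcript length the MUC1 log2 fold change was -0.35 (adjusted p = 0.665), against -1.05 without them. Counts were tested with edgeR's quasi-likelihood test, with Benjamini-Hochberg adjustment over 17363 genes and a threshold of 0.05. All 10 markers passed the filter on low counts, 2 were lower and 0 were higher at that threshold, against 0.921% of tested genes lower, 3.11% higher and 4.03% in either direction. The unadjusted p was under 0.05 for 6 markers, all lower, against 10.5% of tested genes lower and 10.8% higher. DESeq2 called 4 markers lower (CD24, MUC1, MSLN and SOX17) and 0 higher, against 4.65% and 6.65% of tested genes. The median log2 fold change of the 10 was -0.69, and that of all tested genes was -0.06. In 7 of the 10 every fenbendazole library lay below every DMSO library on the CPM scale (counts scaled to equal library totals with TMM factors), which held for 15.5% of tested genes. The opposite order was seen in 0 markers and 17% of tested genes.

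The libraries held 13170775 to 22128930 counts, so that 3 counts equal 0.136 to 0.228 CPM. DMSO 11 stood apart from the other libraries. Its deviation from the mean of the 6 libraries followed the GC content of transcripts, with a Spearman rho across 16975 genes of 0.776, against -0.429 to -0.176 in the others. Genes are not independent replicates, so this is a description. Over tested genes with at least 55% GC, DMSO 11 was at a median of 1.83 times the mean of DMSO 10 and 12, and over those under 50% GC at 0.755 times. Results that rest on it are also given without it. The epithelial keratins, defining markers of the cell type, were present: KRT8 averaged 442.6 CPM with fenbendazole and 453.4 CPM in DMSO. Of 4 keratins tested, KRT7 alone had an unadjusted p under 0.05, and it averaged 227.7 ± 2.92 CPM with fenbendazole and 110.2 ± 62.7 CPM in DMSO (log2 fold change 1.05 ± 0.348, adjusted p = 0.148, and 1.63, adjusted p = 1.95e-09, without DMSO 11). Of the 25 markers of mesothelium, fibroblasts, leukocytes and endothelium, ITLN1 and CD3E had no count in any library. The summed leukocyte markers ran from 15.1 to 17.7 CPM with fenbendazole and from 12.6 to 18.96 CPM in DMSO, most of it CD68. Fibroblast markers summed to 65.4 to 68.98 CPM with fenbendazole and 66.1 to 104.6 CPM in DMSO. Most of it was COL1A1, which averaged 39.9 CPM with fenbendazole and 51.6 CPM in DMSO. COL1A1 had 1832 counts in DMSO 11, against 710 in DMSO 10 and 468 in DMSO 12. Endothelial markers summed to 13.3 to 14.1 CPM with fenbendazole and 10.4 to 12.3 CPM in DMSO, most of it PECAM1. The part of these markers in the results was not tested.

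Levels between genes can be compared only per transcript length, and the authors' FPKM values (fragments per kilobase of transcript, scaled to library size) serve for that. CD24 was the most abundant marker in both groups. It averaged 128 ± 1.66 FPKM with fenbendazole and 315 ± 26.8 FPKM in DMSO (SD, n = 3 each), where it ranked 121 of 61552 genes. PAX8 came next, at 64.0 ± 2.07 FPKM with fenbendazole and 89.6 ± 22.6 FPKM in DMSO, where it ranked 513. EPCAM was the third, at 32.1 ± 0.714 FPKM with fenbendazole and 36.5 ± 4.60 FPKM in DMSO. In DMSO these were followed by MUC1, FOLR1, SOX17, WFDC2, MSLN, WT1 and MUC16. The DMSO values of neighbours in this order did not overlap for CD24 to FOLR1. They overlapped between FOLR1 and SOX17, SOX17 and WFDC2, WFDC2 and MSLN, and WT1 and MUC16. With fenbendazole the order of the means was the same, and the values overlapped only between MUC1 and FOLR1 and between SOX17 and WFDC2. MUC16, the gene of CA125, stood last at 0.0411 ± 0.00392 FPKM with fenbendazole and 0.0578 ± 0.00958 FPKM in DMSO. WT1 was next to last, at 0.263 ± 0.0927 FPKM with fenbendazole and 0.193 ± 0.218 FPKM in DMSO.

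**Figure D1:**
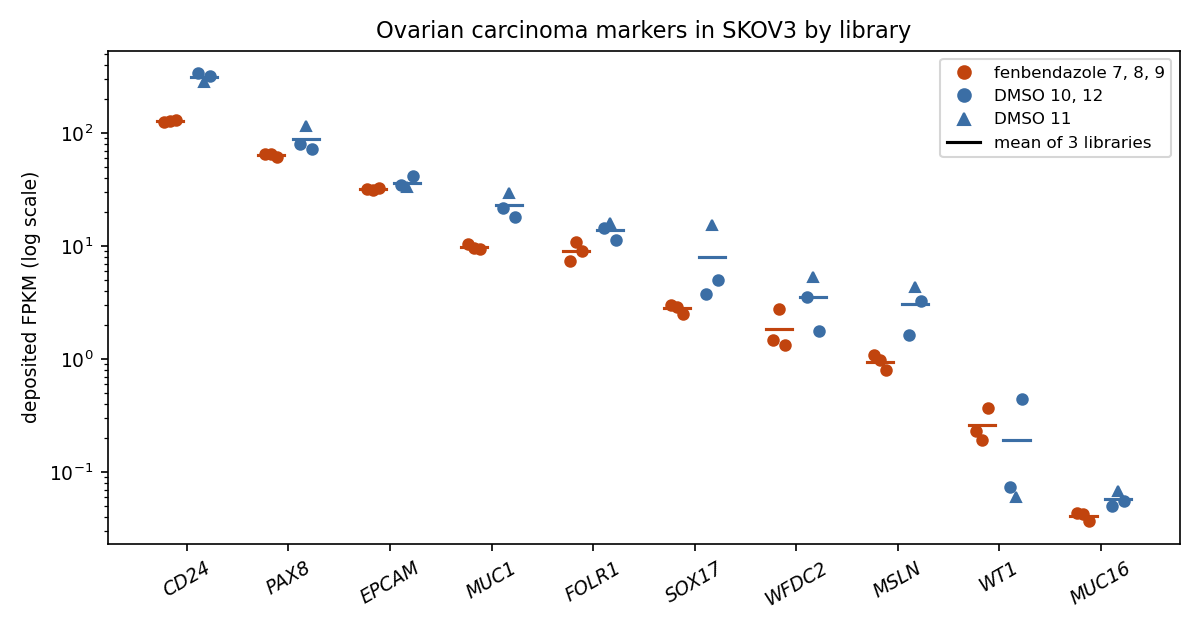
Deposited FPKM of the 10 markers on a log scale, by library, with the fenbendazole libraries left of the DMSO libraries, a line at each mean of 3 libraries and a triangle for DMSO 11. CD24, PAX8 and EPCAM led in both groups, and DMSO 11 was the highest library for SOX17, at 15.3 FPKM.

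CD24 (ENSG00000272398, chromosome 6, 106969831 to 106975627, minus strand, GRCh38) had 4794, 4396 and 5632 counts with fenbendazole, against 14964, 14850 and 10317 counts in DMSO. On the CPM scale it was at 317.4, 317.2 and 331.7 with fenbendazole and at 833.9, 651.6 and 767.4 in DMSO. The groups did not overlap, the treated libraries lay close together, and DMSO 11 was the lowest control. Its log2 fold change was -1.22 ± 0.130 (SE, as for every log2 fold change here), with a 95% confidence interval of -1.52 to -0.92 and an edgeR adjusted p of 0.00347. It passed the threshold under all 16 other settings, which included leaving out each library, with log2 fold changes from -1.34 to -1.14. Without DMSO 11 it was -1.31 ± 0.0596 (adjusted p = 3.21e-09). The pseudogenes CD24P1, CD24P2 and CD24P5 had 0 to 3 counts in each library. The upstream sequence of this gene is shown with those of MUC1, the other marker that fell, and PAX8, an abundant marker that did not pass the threshold. Each holds the 250 bases before the transcription start from RefSeq (GRCh38.p14, minus strand, chr6:106975628-106975877, chr1:155192916-155193165 and chr2:113278922-113279171). Capitals mark the motifs searched on both strands.
CD24: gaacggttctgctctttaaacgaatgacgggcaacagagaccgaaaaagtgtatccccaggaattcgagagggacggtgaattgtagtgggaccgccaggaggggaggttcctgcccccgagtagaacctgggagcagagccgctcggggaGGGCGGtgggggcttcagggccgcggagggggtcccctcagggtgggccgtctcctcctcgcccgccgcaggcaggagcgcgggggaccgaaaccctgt
MUC1: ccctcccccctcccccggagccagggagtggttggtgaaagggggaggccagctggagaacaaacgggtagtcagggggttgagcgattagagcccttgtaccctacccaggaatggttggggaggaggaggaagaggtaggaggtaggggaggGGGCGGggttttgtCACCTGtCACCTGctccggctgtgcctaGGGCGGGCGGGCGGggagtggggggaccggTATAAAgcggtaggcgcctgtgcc
PAX8: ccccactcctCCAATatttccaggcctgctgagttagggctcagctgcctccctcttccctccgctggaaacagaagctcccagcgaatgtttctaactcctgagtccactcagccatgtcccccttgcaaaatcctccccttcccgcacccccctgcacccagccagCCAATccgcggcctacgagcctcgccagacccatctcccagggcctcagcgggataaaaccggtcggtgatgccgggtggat
The motifs were the GC box GGGCGG, the CCAAT box CCAAT, the TATA box TATAAA, the cell cycle homology region TTTGAA, the ZEB and SNAI E-box CACCTG and the AP-1 motif TGANTCA. The GC box lay in CD24, MUC1, WFDC2 and WT1 of the 5 markers with an upstream sequence within 1000 bases of the deposited gene start, and in 42.6% of 35116 upstream sequences of the same length. CD24 had 1 GC box and MUC1 had 4, of which those between bases -54 and -41 from the start overlapped their neighbours. The E-box lay in MUC1 and WFDC2 and in 17.5% of all, the TATA box in MUC1 and in 10.7%, and the CCAAT box in PAX8 and in 32% of all. The cell cycle homology region and the AP-1 motif were in none of the 5, and in 13.3% and 6.57% of all. EPCAM, MSLN, FOLR1 and SOX17 were not matched, and for MUC16 the closest start was farther than that distance.

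MUC1 (ENSG00000185499, chromosome 1, 155185824 to 155192916, minus strand) had 286, 258 and 265 counts with fenbendazole, against 619, 1027 and 411 counts in DMSO. It was at 18.9, 18.6 and 15.6 CPM with fenbendazole and at 34.5, 45.1 and 30.6 CPM in DMSO. The groups did not overlap, and DMSO 11 was the highest library. Its log2 fold change was -1.05 ± 0.198 (edgeR adjusted p = 0.0299). The call was lost without fenbendazole 7 (adjusted p = 0.153), 8 (0.146) or 9 (0.184) and without DMSO 10 (0.0933). Without DMSO 11 the change was -0.87 ± 0.131 (adjusted p = 0.000309). With offsets for GC content and transcript length it was -0.35 ± 0.476 (adjusted p = 0.665). Over all 16 settings the adjusted p ran from 8.02e-05 to 0.665. The longest MUC1 transcript has 71.2% GC, and 15 of 16975 tested genes had that GC content or more. How well the offsets fit genes of such GC content was not tested. The 3′ part of MUC1 overlaps a gene model on the same strand, ENSG00000273088, which had 3, 0 and 0 counts with fenbendazole and 21, 0 and 2 counts in DMSO.

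MUC16 (ENSG00000181143, chromosome 19, 8848844 to 8981342, minus strand) had 34, 31 and 33 counts with fenbendazole, against 45, 73 and 37 counts in DMSO, over a transcript model of 43816 bases. On the CPM scale the groups did not overlap, with 1.94 to 2.25 CPM with fenbendazole and 2.51 to 3.20 CPM in DMSO. The log2 fold change of MUC16, -0.40 ± 0.268, did not pass the threshold (adjusted p = 0.418). The 95% confidence interval of -1.02 to 0.22 covers a fall to 0.493 times and a rise to 1.17 times the DMSO level.

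The adhesion molecule EPCAM (ENSG00000119888, chromosome 2, 47345158 to 47387601, plus strand) had 870, 777 and 1027 counts with fenbendazole, against 1088, 1248 and 978 counts in DMSO. It was at 57.6, 56.1 and 60.5 CPM with fenbendazole and at 60.6, 54.8 and 72.7 CPM in DMSO, and these values overlapped. For EPCAM the fitted log2 change was -0.11 ± 0.147 (adjusted p = 0.694), with a 95% confidence interval of -0.45 to 0.23. The sign turned without DMSO 12, where the change was 0.01, and the adjusted p was at least 0.195 under each of the 16 settings.

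MSLN and FOLR1 encode proteins held in the membrane by a glycosylphosphatidylinositol (GPI) anchor, as CD24 is. Mesothelin, from MSLN (ENSG00000102854, chromosome 16, 760734 to 768865, plus strand), had 42, 37 and 36 counts with fenbendazole, against 75, 244 and 73 counts in DMSO. Its CPM values were 2.78, 2.67 and 2.12 with fenbendazole and 4.18, 10.7 and 5.43 in DMSO. The groups did not overlap, and DMSO 11 was far above the other libraries, at 2.23 times the mean of DMSO 10 and 12. With all libraries the log2 fold change was -1.43 ± 0.391 (adjusted p = 0.0955). Without DMSO 11 it was -0.92 ± 0.294 and passed the threshold (adjusted p = 0.0389). It also passed with DESeq2 (0.0137), voom quality weights (0.027) and the GC and length offsets (0.0365), and the adjusted p over all 16 settings ran to 0.338. In DMSO 12 the MSLN row held 22.4 counts per FPKM, against 46.0 in DMSO 10, while the CD24 row held 32.35 and 43.999. The deposited FPKM of MSLN in DMSO 12 is thus high for its count when set beside CD24. Markers of mesothelium, which also makes mesothelin, summed to 6.64 to 8.13 CPM with fenbendazole and 6.69 to 17.2 CPM in DMSO. Of these 6 markers 2 were tested, UPK3B and LRRN4, and 0 passed the threshold with edgeR. UPK3B, a uroplakin of mesothelium, was at 3.11, 2.89 and 4.48 CPM with fenbendazole and at 6.97, 12.99 and 5.06 CPM in DMSO (log2 fold change -1.26 ± 0.391, unadjusted p = 0.0134, adjusted p = 0.128), and DESeq2 and voom quality weights called it lower. Without DMSO 11 it was at -0.77 (adjusted p = 0.0652). Its groups did not overlap, and DMSO 11 was the highest library, as for MSLN. LRRN4 was at 0.56 ± 0.364 (adjusted p = 0.402). CALB2, the defining calretinin gene, had 0, 6 and 0 counts with fenbendazole and 0, 8 and 0 counts in DMSO. The part of mesothelial markers in the MSLN values was not tested.

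Folate receptor alpha, from FOLR1 (ENSG00000110195, chromosome 11, 72189558 to 72196323, plus strand), had 144, 187 and 197 counts with fenbendazole, against 318, 419 and 187 counts in DMSO. It was at 9.53, 13.5 and 11.6 CPM with fenbendazole and at 17.7, 18.4 and 13.9 CPM in DMSO. The groups stood apart on this scale by a small margin, between fenbendazole 8 and DMSO 12. The fitted log2 fold change of FOLR1 was -0.53 ± 0.212 (adjusted p = 0.206), and -0.45 ± 0.186 without DMSO 11 (adjusted p = 0.103). Voom quality weights were the only setting of 16 in which it passed the threshold (adjusted p = 0.0234), and the highest adjusted p was 0.521. The pseudogene FOLR1P1 had 4, 13 and 15 counts with fenbendazole and 0, 18 and 6 counts in DMSO.

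WFDC2 (ENSG00000101443, chromosome 20, 45469753 to 45481532, plus strand), the gene of HE4, had 17, 26 and 16 counts with fenbendazole, against 44, 74 and 18 counts in DMSO. Fenbendazole 8, at 1.88 CPM, lay above DMSO 12, at 1.34 CPM, so the groups overlapped. The WFDC2 log2 fold change was -0.86 ± 0.441 (adjusted p = 0.305), and -0.54 ± 0.465 without DMSO 11 (adjusted p = 0.462). Its 95% confidence interval of -1.88 to 0.17 was wide.

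Of the lineage factors, PAX8 (ENSG00000125618, chromosome 2, 113215997 to 113278921, minus strand) had 3204, 3030 and 3410 counts with fenbendazole, against 4441, 7792 and 3192 counts in DMSO. It was at 212.1, 218.7 and 200.8 CPM with fenbendazole and at 247.5, 341.9 and 237.4 CPM in DMSO. The groups did not overlap, and DMSO 11 was 1.41 times the mean of the other controls. The PAX8 log2 fold change was -0.39 ± 0.163 (adjusted p = 0.226). Without DMSO 11 it was smaller and passed the threshold, at -0.196 ± 0.0647 (adjusted p = 0.0439), and with voom quality weights it was -0.22 (0.0349). The highest adjusted p of the 16 settings was 0.519. PAX8 overlaps PAX8-AS1 on the opposite strand, which had 989, 1008 and 1497 counts with fenbendazole and 1676, 1423 and 1127 counts in DMSO. The labels do not say whether strand was kept, so reads of these genes may not be separated.

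SOX17 (ENSG00000164736, chromosome 8, 54457935 to 54460892, plus strand) had 126, 111 and 120 counts with fenbendazole, against 182, 868 and 180 counts in DMSO. It was at 8.34, 8.01 and 7.07 CPM with fenbendazole and at 10.1, 38.1 and 13.4 CPM in DMSO. The groups did not overlap, and DMSO 11 alone was 3.24 times the mean of the other controls. The log2 fold change with all libraries was -1.40 ± 0.482 (adjusted p = 0.158). Without DMSO 11 it was -0.58 ± 0.196, a smaller change that passed the threshold (adjusted p = 0.0479). It passed also with DESeq2 (0.0359) and the GC and length offsets (0.0332), and its highest adjusted p was 0.423.

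WT1 (ENSG00000184937, chromosome 11, 32387775 to 32435564, minus strand) had 7, 10 and 18 counts with fenbendazole, against 5, 5 and 17 counts in DMSO. These are 0.463, 0.722 and 1.06 CPM with fenbendazole and 0.279, 0.219 and 1.26 CPM in DMSO, not far above the level of 3 counts. DMSO 12 was the highest library and the groups overlapped. Its log2 fold change was 0.44 ± 0.741 (edgeR adjusted p = 0.761), with a 95% confidence interval of -1.29 to 2.17. That interval covers a fall to 0.409 times and a rise to 4.50 times the DMSO level. The WT1 estimate depended on single controls. Without DMSO 12 it was 1.58 ± 0.666 (adjusted p = 0.199), and without DMSO 11 it was 0.02 ± 0.701 (0.988). WT1-AS, which overlaps it on the other strand, had at most 3 counts in a library.

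**Figure D2:**
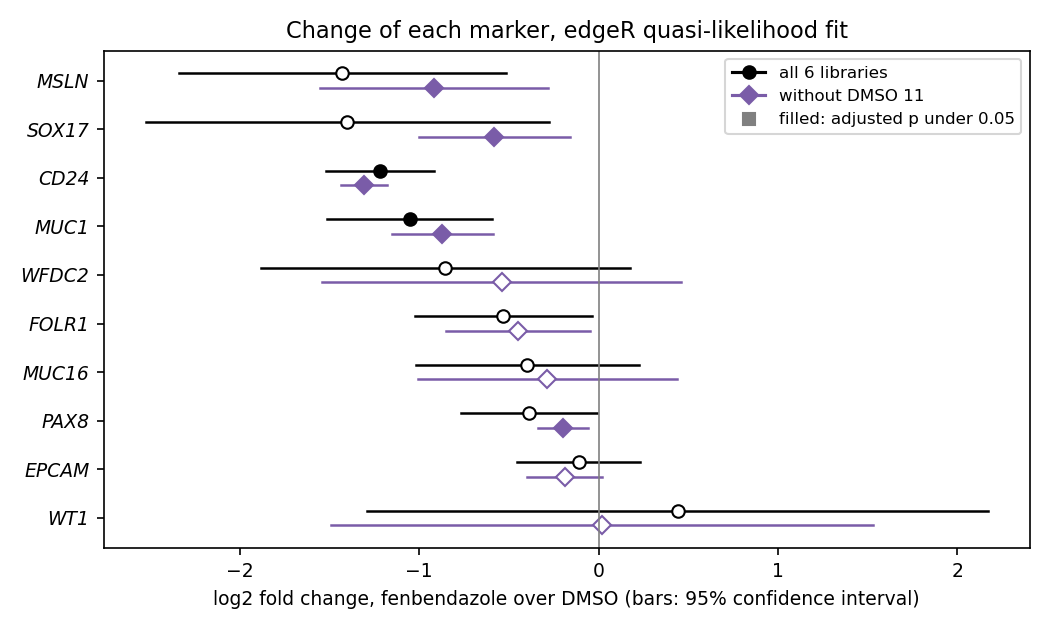
Log2 fold change of each marker, fenbendazole over DMSO, with its 95% confidence interval from edgeR, for all 6 libraries (circles) and without DMSO 11 (diamonds), filled where the adjusted p was under 0.05. CD24 and MUC1 passed in both fits, and the MSLN and SOX17 estimates moved to -0.92 and -0.58 without DMSO 11.

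The position of DMSO 11 differed between the markers, and so did the effect of leaving it out. It was below the mean of the other controls for CD24 (0.814 times, 45.8% GC), EPCAM (0.821 times, 47.0% GC) and WT1 (0.284 times, 53.4% GC, on few counts). It was above it for the other markers, most of all for SOX17 (3.24 times, 58.3% GC). The markers with more GC than SOX17 had lower ratios, MSLN 2.23 times (65.4% GC) and MUC1 1.39 times (71.2% GC). Without DMSO 11, 5 of the 10 markers were lower past the threshold (CD24, MUC1, MSLN, SOX17 and PAX8) and 0 higher, against 9.23% of 17689 tested genes lower and 13.1% higher. Since the library left out is the one farthest from the others, the spread between controls may be understated in that fit. Without fenbendazole 7, 8 or 9 or DMSO 10, 1 marker was lower each time, CD24, against 0.0439%, 0.0437%, 0.045% and 0.169% of tested genes. Without DMSO 12 the 2 called markers were CD24 and MUC1, against 0.553% of tested genes lower. With voom quality weights 5 markers were lower (CD24, MUC1, MSLN, FOLR1 and PAX8), against 12.4% of tested genes. The GC and length offsets left 3 lower (CD24, MSLN and SOX17), against 9.51%. The median of the 10 log2 fold changes was -0.50 without DMSO 11, and that of all tested genes -0.01.

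**Figure D3:**
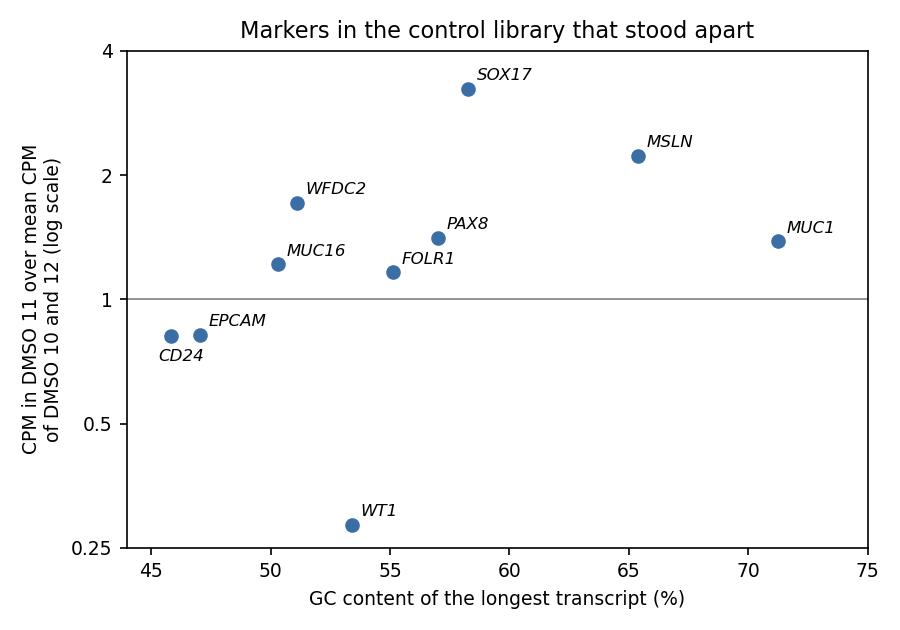
CPM in DMSO 11 divided by the mean CPM of DMSO 10 and 12 (log scale) against the GC content of the longest GENCODE v29 transcript, for the 10 markers. SOX17, at 3.24 times, and MSLN, at 2.23 times, were highest. WT1, on few counts, was lowest at 0.284 times, and CD24 and EPCAM also lay below 1.

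**Figure D4:**
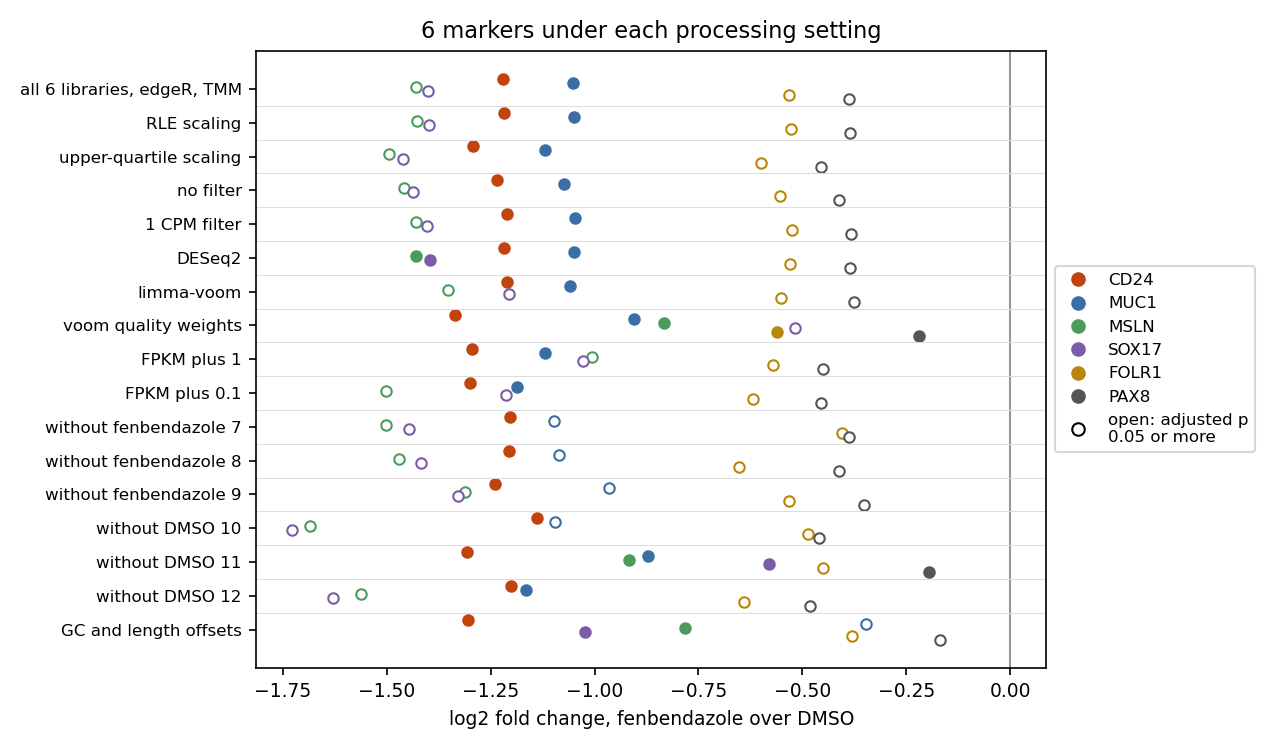
Log2 fold change, fenbendazole over DMSO, of 6 markers under the main fit and each of 16 other settings, filled where the adjusted p was under 0.05. CD24 was filled in each setting and stayed between -1.34 and -1.14, and MUC1 was open in 5 settings.

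Further genes of the same kind were described by their counts past the threshold and medians, with -0.06 as the median of all tested genes. Their lists, too, were written with earlier results of these data known. Of all tested genes, 0.921% were lower and 3.11% higher past the threshold with edgeR. At an unadjusted p under 0.05 these shares were 10.5% and 10.8%, and by DESeq2 4.65% and 6.65%. Without DMSO 11 they were 9.23% and 13.1%. Of 14 other surface targets 11 were tested, 2 fell and 0 rose, with a median of -0.71. By unadjusted p under 0.05, 5 were lower and 0 higher, and DESeq2 called 3 lower and 0 higher. CDH6, a cadherin, was at 130.7, 127.7 and 145.3 CPM with fenbendazole and at 276.7, 188.4 and 270.5 CPM in DMSO (log2 fold change -0.87 ± 0.172, adjusted p = 0.0368). Its groups did not overlap, but the call was lost without any library other than DMSO 11. ERBB2, the receptor kinase gene HER2, averaged 4394 ± 212.3 CPM with fenbendazole and 10757 ± 4454 CPM in DMSO (adjusted p = 0.0422). Its fold change, -1.29 with all libraries, was -0.89 without DMSO 11, and the call was lost without fenbendazole 7, 8 or 9 or DMSO 10 and in both FPKM fits. CLDN4, a claudin of tight junctions, was at -1.08 ± 0.316 on the same scale (adjusted p = 0.111). Without DMSO 11 the median of this list was -0.06, with 5 members lower and 1 higher.

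Among 18 other lineage factors 9 were tested, 1 fell and 0 rose, with a median of -0.63. Unadjusted p-values under 0.05 were found for 5 lower and 1 higher, as were DESeq2's calls. ESR1, the estrogen receptor, was at 100.6, 101.8 and 104.8 CPM with fenbendazole and at 199.1, 164.9 and 177.8 CPM in DMSO, without overlap (log2 fold change -0.82 ± 0.122, adjusted p = 0.0125). The call was lost without fenbendazole 7, 8 or 9 or DMSO 10. NR2F2, an orphan nuclear receptor, was at -0.68 ± 0.172 (adjusted p = 0.0767). Without DMSO 11, 5 of these factors were lower and 1 higher, with a median of -0.55.

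None of the 8 tested genes among 14 other secreted markers passed the threshold with edgeR (median -0.34), with 1 lower and 0 higher before adjustment (p under 0.05) and 0 calls by DESeq2. SLPI, a protease inhibitor, averaged 445.4 ± 54.0 CPM with fenbendazole and 569.3 ± 88.3 CPM in DMSO (adjusted p = 0.246). SPINT1, another protease inhibitor, and MMP7, matrilysin, were at -0.97 ± 0.374 and -0.33 ± 0.168 (adjusted p = 0.197 and 0.296). Without DMSO 11, MMP7 was the 1 secreted marker that was lower, with 0 higher. Of 8 WAP family genes, relatives of WFDC2, 2 were tested, SLPI and PI3, and 0 passed the threshold, with 0 at an unadjusted p under 0.05 and 0 by DESeq2. PI3, elafin, was at 0.85 ± 0.460 (adjusted p = 0.325).

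Of 15 other mucin genes 5 were tested and 0 passed with edgeR (median -0.66). With unadjusted p under 0.05, 3 were lower and 0 higher, and DESeq2 called 2 lower and 0 higher. MUC5AC, a gel-forming mucin, averaged 3.84 FPKM with fenbendazole and 6.44 ± 1.99 FPKM in DMSO, below the FPKM of MUC1. Its log2 fold change was -0.66 ± 0.204 (adjusted p = 0.127), and those of MUC5B and MUC6 were -1.27 ± 0.334 and -1.09 ± 0.373 (0.0851 and 0.155), both also gel-forming. MUC15, MUC21 and MUC22 had no count in any library. Without DMSO 11, 2 mucins were lower and 0 higher.

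Of 8 markers used for tumour-initiating cells, 4 were tested and 1 fell. ALDH1A1, an aldehyde dehydrogenase, was at 1.32, 1.08 and 1.24 CPM with fenbendazole and at 3.46, 3.03 and 4.61 CPM in DMSO, without overlap (log2 fold change -1.59 ± 0.303, adjusted p = 0.0305). The call was lost without any library other than DMSO 11 and in the FPKM fit with a pseudocount of 0.1. CD44, the hyaluronan receptor often sorted together with CD24, averaged 610.2 ± 8.09 CPM with fenbendazole and 445.4 ± 33.4 CPM in DMSO. Its log2 fold change of 0.45 ± 0.112 missed the threshold (adjusted p = 0.0713), and it was 0.41 and passed without DMSO 11 (0.000232). POU5F1, a pluripotency factor, was at -0.39 ± 0.192 (adjusted p = 0.282). The median of this list was -0.51, and 1 gene was higher and 1 lower both at an unadjusted p under 0.05 and by DESeq2.

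Genes that handle these proteins gave 1 call. Among all tested genes 4.03% were called in either direction and 3.11% were called higher. The 1 rise, among 26 anchor genes, was near the latter share. Of 26 genes that build, attach or remodel the GPI anchor of CD24, FOLR1 and MSLN, all were tested. Of these, 1 rose and 0 fell, with a median of -0.14. At an unadjusted p under 0.05, 3 were higher and 1 lower, and DESeq2 called 1 higher and 0 lower. PIGW, an acyltransferase of the anchor, averaged 41.8 ± 1.96 CPM with fenbendazole and 21.6 ± 2.36 CPM in DMSO (log2 fold change 0.95 ± 0.155, adjusted p = 0.0168). Its call was lost without fenbendazole 7, 8 or 9 or DMSO 10. Of 10 sheddases and gamma-secretase subunits, proteases of the kind that cut surface proteins such as EPCAM and MUC1, 0 passed the threshold (median -0.08), with 1 lower and 0 higher both at an unadjusted p under 0.05 and by DESeq2. NCSTN, a gamma-secretase subunit, was at -0.60 ± 0.137 (adjusted p = 0.0572) and ADAM9, a metalloprotease, at 0.45 ± 0.196 (0.244). Of 6 other genes of the folate receptor family or of folate carriers, 4 were tested and 0 passed (median -0.06). Among them 1 was lower and 0 higher at an unadjusted p under 0.05, and 0 were called by DESeq2. SLC46A1, the proton-coupled folate carrier, was at -0.51 ± 0.199 (adjusted p = 0.201), and FOLR2 and IZUMO1R had no count in any library. Without DMSO 11, 4 anchor genes were higher and 2 lower, 2 of the cleavage genes were higher and 1 lower, and 0 of the folate genes passed. In that fit 13.1% of all tested genes were higher and 9.23% lower, and the anchor and cleavage counts were near these shares.

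**Figure D5:**
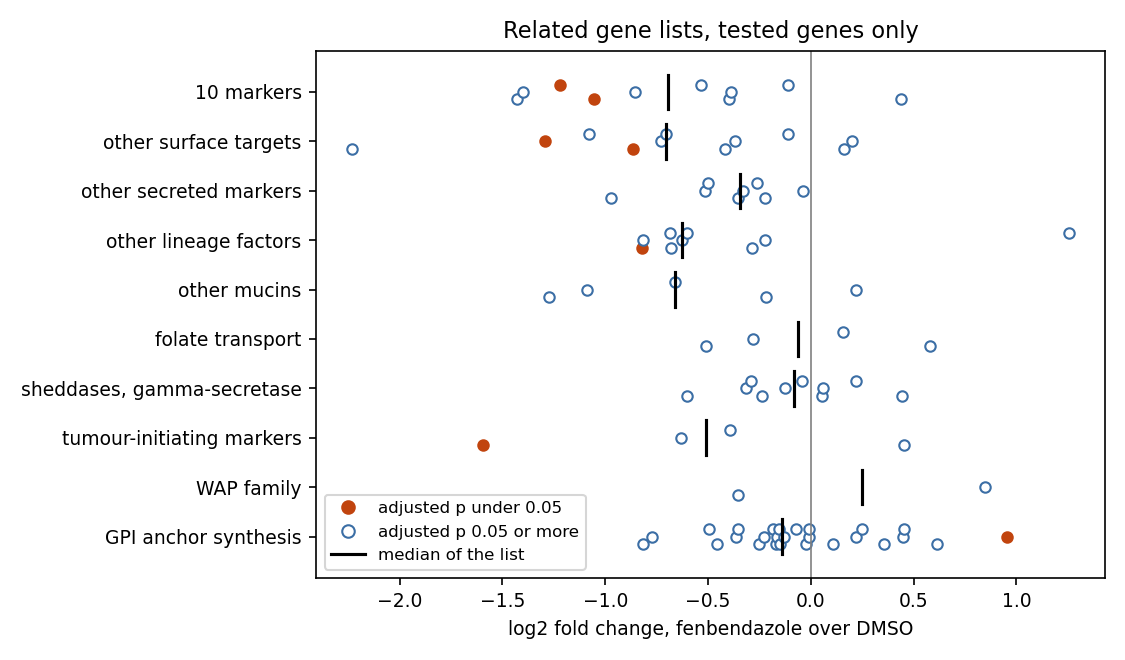
Log2 fold change, fenbendazole over DMSO, of the tested genes of each list (filled where the adjusted p was under 0.05), with a line at each list's median. The 10 markers had a median of -0.69, and the GPI anchor genes had one of -0.14 and a single rise, PIGW. Of all tested genes 3.11% were higher.

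The genes whose values over the 6 libraries were most like those of the 2 most abundant markers were sought among 11595 others with a mean of at least 5 CPM. Likeness was the root mean square difference of log2 CPM, each gene centred on its own mean. Because the genes were picked by these same values, their small differences and shared patterns follow from the choice and support nothing further. Closest to CD24 were B3GALT5, a galactosyltransferase, at 0.110, OPRK1, the kappa opioid receptor, at 0.111 and SLC7A2, a carrier of cationic amino acids, at 0.114, against a median of 0.672 over all. B3GALT5 was at 37.6, 44.2 and 43.5 CPM with fenbendazole and at 93.5, 81.8 and 88.8 CPM in DMSO. Like CD24, it had no overlap between the groups. Closest to PAX8 were AACS, acetoacetyl-CoA synthetase, at 0.026, CMIP at 0.0298 and the factor NFIX at 0.031, against a median of 0.350. AACS was at 17.5, 17.8 and 16.4 CPM with fenbendazole and at 20.6, 28.9 and 20.5 CPM in DMSO, with DMSO 11 highest, as for PAX8.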

How the data were processed

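TRIzol RNA went into NEB Ultra libraries, per the labels' protocols. The genome build was GRCh38, and the tools named are edgeR, StringTie 1.3.4b, HISAT2 2.1.0 and CASAVA 1.8, per the submitters' processing notes. How reads were counted, with which strand setting and on which annotation, was not given in the sources used here. The authors deposited raw whole-number counts for each gene, and beside them FPKM, as named per the file headers.

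Counts of all genes were fitted with edgeR 4.0.16 (R 4.3.3): TMM scaling, edgeR's filter on low counts and the robust quasi-likelihood F test, two-sided, with Benjamini-Hochberg adjustment. Standard errors came from the F statistic. DESeq2 1.42.0 and limma 3.58.1 were alternatives. The fit was tested on simulated data with known changes. Values are mean ± SD over 3 libraries. For each gene, the longest GENCODE v29 transcript gave its GC content and length. Replicate counts were compared pairwise by chi-square, and the lowest value over its degrees of freedom, 5.34, exceeded sampling noise.

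The markers and lists were chosen with earlier results of these data known. Named genes are the 10 markers, up to 3 tested genes with the smallest p in each list, and the 3 genes most like each of the 2 most abundant markers, and those that carry the description are given. 1 named gene is not reported here. The keratin, mesothelium, fibroblast, leukocyte and endothelium lists checked cell identity, and 0 of their genes passed the threshold with edgeR. At an unadjusted p under 0.05, 1 of them (KRT7) was higher and 2 were lower, against 10.8% and 10.5% of all tested genes. DESeq2's calls gave the same counts, against 6.65% and 4.65%.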

Additional observations from a re-analysis of the deposited data

How the results depend on the processing

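No paired analysis was possible because libraries 7 to 9 and 10 to 12 have no number in common. With all libraries 700 genes passed (540 higher, 160 lower), 2 of them markers. DESeq2 gave 1963 (1155 and 808) with 4 markers lower, voom quality weights 4587 (2434 and 2153; weight of DMSO 11 0.074) with 5, and GC and length offsets 3660 (2046 and 1614) with 3. With each library omitted in turn, between 147 and 3946 genes passed, of which 139 to 2313 were higher and 8 to 1633 lower, 1 to 5 markers among the lower ones. No marker was called higher in any setting. CD24 and MUC1 passed under the other scalings and filters, voom and both FPKM fits (627 to 858 genes). No called marker turned direction. Of 16 settings, CD24 passed in all and MUC1 in 11. MUC16 was tested in 14 and WT1 in 13, with no call. Omitting a library also lowers n, and the cause of the other differences was not tested. Counts of under 100 in a library limit MUC16, WFDC2, WT1 and, apart from DMSO 11, MSLN.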
